A study of Homo sapiens with 4 samples.

Results

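The interleukin-1 (IL-1) family cytokines and receptors comprise 10 genes of the 29655 gene names in the expression tables, and their mRNA was followed after delivery of PRMT5 shRNA. The genes were chosen by name, as the agonists IL1A, IL1B, IL36G, IL36B, IL33 and IL18, the antagonists IL1RN and IL36RN, and the receptor subunits IL1R1 and IL1RAP. The family was selected on the rise of IL36G between the same groups that are compared here, so the values of IL36G are a description without a test. No member has more than 1 entry in the tables, so nothing was summed.

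The samples were cells of UMSCC74B, a long-established line from a squamous cell carcinoma of the head and neck (HNSCC). Control, with the genotype label WT and the treatment label CONTROL, was 2 libraries from cells given control shRNA. PRMT5 KD was 2 libraries from cells given shRNA against PRMT5, an arginine methyltransferase that the study connects with the RNA-binding protein FXR1. All 4 were collected at 72 h. The labels speak of plasmid transfection and the methods of lentiviral particles, and neither says that the libraries of a group came from separate cultures, so p-values measure only the spread between these libraries.

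IL-1 family agonists are made largely as precursors without a conventional signal peptide, and proteolytic cleavage activates or strengthens most of them. IL-1α and IL-1β signal through IL1R1 with the accessory chain IL1RAP, which also serves the receptors for IL-36 and IL-33, whereas IL-18 uses a receptor pair of its own. IL1RN and IL36RN encode antagonists that occupy the IL-1 and IL-36 receptors. In squamous epithelium the cytokines of this family are known as alarm signals of damaged or inflamed tissue.

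The promoters of 4 members of 1 gene cluster are shown. Of these, IL36G and IL1RN were low in Control, and IL1B and IL1A were abundant there. In the same cluster, no promoter was given for IL36B, and that of IL36RN is not shown. Each run is the 250 bases before the start of the MANE transcript, 5′ to 3′ on the gene's strand, from RefSeq on GRCh38. The windows are chr2:112977756-112978005 (plus strand) for IL36G, chr2:112836780-112837029 (minus strand) for IL1B, chr2:113127348-113127597 (plus strand) for IL1RN and chr2:112784494-112784743 (minus strand) for IL1A. Capitals mark the motif matches.
IL36G: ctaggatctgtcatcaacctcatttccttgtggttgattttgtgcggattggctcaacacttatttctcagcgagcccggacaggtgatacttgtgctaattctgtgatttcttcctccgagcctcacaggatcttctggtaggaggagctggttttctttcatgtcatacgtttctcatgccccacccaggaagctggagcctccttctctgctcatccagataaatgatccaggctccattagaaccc
IL1B: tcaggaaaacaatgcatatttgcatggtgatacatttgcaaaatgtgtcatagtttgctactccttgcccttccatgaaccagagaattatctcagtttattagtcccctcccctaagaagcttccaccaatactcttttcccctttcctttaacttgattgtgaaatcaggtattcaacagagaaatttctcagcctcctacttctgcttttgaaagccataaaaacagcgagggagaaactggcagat
IL1RN: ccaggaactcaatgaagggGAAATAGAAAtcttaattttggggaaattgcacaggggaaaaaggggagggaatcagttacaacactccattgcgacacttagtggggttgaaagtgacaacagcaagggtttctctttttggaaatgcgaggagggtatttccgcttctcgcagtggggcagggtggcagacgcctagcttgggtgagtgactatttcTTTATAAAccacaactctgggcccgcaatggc
IL1A: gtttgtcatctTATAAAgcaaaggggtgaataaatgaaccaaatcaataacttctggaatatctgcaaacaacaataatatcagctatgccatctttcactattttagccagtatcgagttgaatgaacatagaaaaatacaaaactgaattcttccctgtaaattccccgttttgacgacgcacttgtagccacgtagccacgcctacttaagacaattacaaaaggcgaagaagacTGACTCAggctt

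Both strands were searched for the kappaB consensus, for the AP-1 letters TGANTCA, for the core of the interferon response element and for the TATA letters TATAAA. Windows were given for 8 of the 10 members, without IL36B and IL18. IL1A held an AP-1 match at bases 12 to 6 before the start and a TATA match at bases 239 to 234. IL1RN held an interferon response core at bases 231 to 222, and TATA matches on both strands that overlap between bases 32 and 25. The other 6 windows, IL36G and IL1B among them, held none of these letters. Of 35116 promoter windows of the same length, 5.21% held a kappaB match, 6.57% an AP-1 match, 3.02% an interferon response core and 10.7% a TATA match. A match describes letters and not a bound site.

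The libraries held 52.2 and 66.0 M counts (M for 1000000) in Control and 64.2 and 55.3 M counts in PRMT5 KD. PRMT5 itself, on the minus strand of chromosome 14, had 94.3 and 84.2 counts per 1000000 (CPM) in Control, against 132 and 149.5 CPM under the PRMT5 KD label. Its mRNA rose, against its label, by 0.66 on the log2 scale (SE 0.12, FDR 0.00547 from edgeR). Without Control replicate 2 the change was 0.58 and was no longer called, and the cause was not tested. The study reports silencing by its PRMT5 shRNA from an immunoblot, at the level of protein, which was not measured here. The groups are therefore named throughout by their label. The defining squamous keratins KRT5 and KRT14 were at 0 in both Control libraries, and CDH1 had 2 to 9 counts in each of the 4 libraries. Of 15 squamous markers 5 were tested and 4 fell (TP63, DSG3, JUP and PERP), beside 24.3% of all genes tested. The tested marker DSP had a mean of 24.6 CPM in Control and 36.6 CPM in PRMT5 KD and did not pass. Below the filter, KRT17 had 5 and 6 counts in Control and 53 and 71 counts in PRMT5 KD, SFN had 3, 5, 28 and 86, and KRT14 had 11 and 22 in PRMT5 KD. Of the 5 tested, both PRMT5 KD libraries were above Control in 1 and below in 4, beside 39.9% and 40.6% of all genes tested. Over all 15, which include the markers below the filter, these were 4 and 5. Their summed levels were 309 and 337 CPM in Control and 177 and 227 CPM in PRMT5 KD. All 8 fibroblast markers tested of 9 listed fell, beside 24.3% of all genes tested. Their summed levels went from 874 and 1037 CPM in Control to 153 and 162 CPM in PRMT5 KD. Of 12 leukocyte markers, CD14 and LAPTM5 fell and CD68 rose, CD3E and CD2 were at 0 throughout, PTPRC had 0 to 5 counts, and the summed levels were 132 and 157 CPM in Control and 156 and 172 CPM in PRMT5 KD. Of 5 endothelial markers, PECAM1 fell, CDH5 had 4, 8, 0 and 0 counts, and the summed levels were 11.1 and 14.9 CPM against 2.16 and 1.32 CPM. Among the markers that fell, TP63, COL3A1, LAPTM5 and PECAM1 passed the filter through Control alone and so had to differ. Ribosomal RNA took 26.2% of the counts in PRMT5 KD replicate 1 and less in the other libraries, the lowest at 14.2%. These differences run with the same labels as every result here, and their part in the results was not tested.

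CPM here are counts scaled by TMM, the edgeR method that sets a common library size, over the 11897 genes tested. A gene was tested where it is protein-coding and reached an RPKM, the count per kilobase of exon and per 1000000 protein-coding counts, of 0.5 in both libraries of at least 1 group. A gene was called, and is said to have risen or fallen, at an FDR under 0.05 over all genes tested and a log2 fold change of 0.5 or more in size. Of the 10 members, 9 were tested and IL36RN was below the filter. IL1A, IL1B, IL18, IL1R1 and IL1RAP passed it in both groups, whereas IL36G, IL36B, IL33 and IL1RN passed only through PRMT5 KD and so had to differ. RNA from whole cultures cannot tell fewer cells of a type from less RNA per cell.

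**Figure D1:**
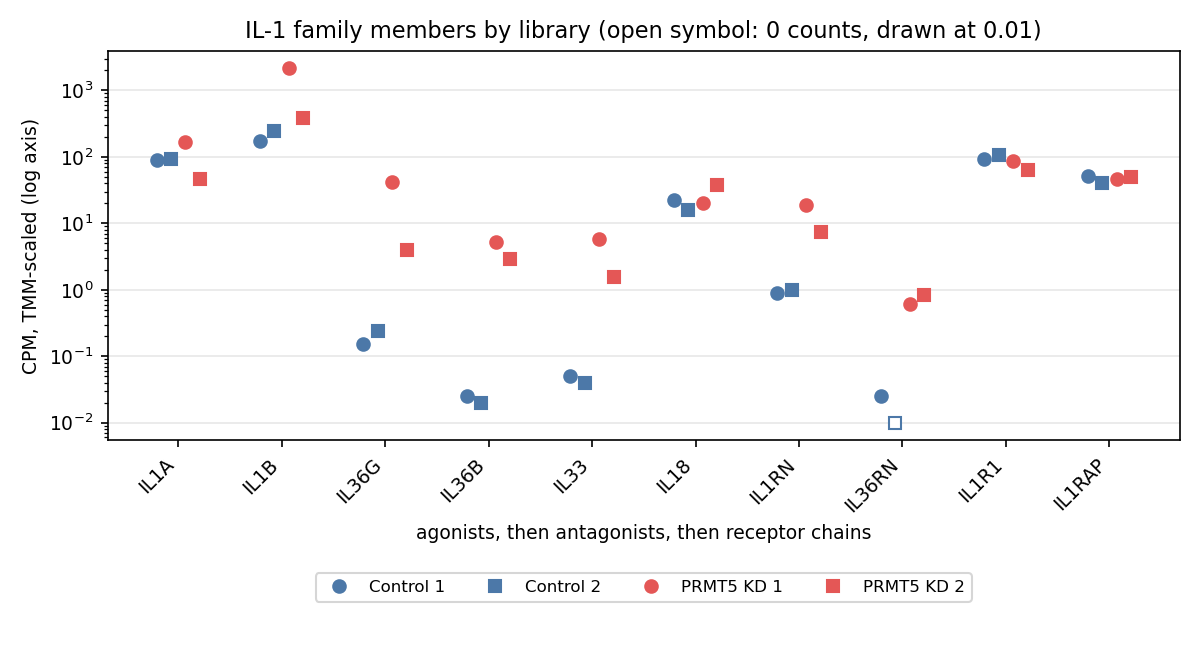
Level of each of the 10 members in each library, in CPM on a log axis, with 1 symbol per library and open symbols for 0 counts. IL36G stands at 42.1 CPM in PRMT5 KD replicate 1 and 3.99 CPM in replicate 2, far above both Control libraries, while IL1A has its highest and its lowest library inside PRMT5 KD.

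Among the agonists, IL36G, IL36B and IL33 were nearly unread in Control and were read in both libraries labelled PRMT5 KD. IL1B was abundant in Control already and stood higher in both PRMT5 KD libraries, most in replicate 1. IL1A and IL18 did not separate the groups.

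IL36G encodes IL-36γ, an agonist made by keratinocytes, and lies on the plus strand at chr2:112973203-112985658. It had 6 and 12 counts in Control and 2003 and 191 counts in PRMT5 KD, or 0.152, 0.240, 42.1 and 3.99 CPM. Both PRMT5 KD libraries were above both Control libraries, and replicate 1 exceeded replicate 2 by 3.38 on the log2 scale. Control averaged 0.196 ± 0.0624 CPM (SD, n = 2). PRMT5 KD averaged 23.0 ± 26.9 CPM (SD, n = 2), with an SD above the mean. The fitted log2 fold change was 6.83 with all libraries. It was 4.34 without PRMT5 KD replicate 1 and 7.70 without replicate 2, so the size of the rise depends on which of these libraries is read, and its direction does not. Summed over libraries the counts were 18 against 2194, a scaled ratio of 114. A processed pseudogene, HMGN2P23, lies inside the gene on the opposite strand. The kit keeps strand, but how strand was used in counting is not given in the sources used here.

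IL36B encodes IL-36β, a second agonist of the same receptor, and lies on the minus strand at chr2:113022089-113052867. It had 1 count in each Control library and 253 and 141 counts in PRMT5 KD, or 0.0253, 0.0200, 5.31 and 2.95 CPM. The groups were far apart, and the PRMT5 KD libraries differed by 0.84 on the log2 scale, less than for IL36G. IL36B rose by a fitted 7.37 on the log2 scale (SE 0.63, FDR 0.000441 from edgeR). With 2 against 394 summed counts, the scaled ratio was 185 with an exact 95% interval of 50.9 to 1533 that covers counting error only. With a library left out the change was 6.92 to 7.74 on the log2 scale. IL36B passed the filter through PRMT5 KD alone and so had to differ. Per length, IL36G made up 89.1% and 94.2% of the summed IL36G and IL36B level in Control, from few counts, and 91.5% and 64.9% in PRMT5 KD.

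IL33 encodes a nuclear cytokine released from damaged cells, and lies on the plus strand at chr9:6215786-6257983. It had 2 counts in each Control library and 276 and 74 counts in PRMT5 KD, or 0.0505, 0.0400, 5.80 and 1.55 CPM. Replicate 1 was again the higher library, by 1.88 on the log2 scale. IL33 rose by a fitted 6.28 on the log2 scale (SE 1.03, FDR 0.00517 from edgeR). Its summed counts were 4 against 350, a scaled ratio of 82.2 with an exact 95% interval of 31.8 to 303. IL33 passed the filter through PRMT5 KD alone and so had to differ. In PRMT5 KD replicate 2 it passed narrowly, at 0.517 RPKM of protein-coding counts. The highest FDR with a library left out was 0.0471 from edgeR, without Control replicate 2.

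IL1B encodes IL-1β, the secreted pyrogen that caspase-1 activates, and lies on the minus strand at chr2:112829751-112836816. It had 6802 and 12090 counts in Control and 101922 and 18221 counts in PRMT5 KD, or 172, 242, 2141 and 381 CPM. The groups did not overlap, yet the nearest libraries of the groups differed by 0.66 and the PRMT5 KD libraries by 2.49 on the log2 scale. The difference of 2.61 on the log2 scale (SE 0.86) did not pass the test, with an FDR of 0.0594 from edgeR. DESeq2 gave an FDR of 0.0226 and edgeR without robust dispersion 0.0312. The change was 0.92 without PRMT5 KD replicate 1 (FDR 0.00659 from edgeR) and 3.38 without replicate 2 (FDR 2.87e-06 from edgeR), both past the threshold. In these fits the single library left in the group was assumed to vary as the Control libraries do.

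IL1A encodes IL-1α, which is active without cleavage, and lies on the minus strand at chr2:112773925-112784493. It had 3538 and 4661 counts in Control and 7902 and 2197 counts in PRMT5 KD, or 89.4, 93.1, 166 and 45.9 CPM. The PRMT5 KD libraries lay on either side of Control. The difference of 0.22 on the log2 scale (SE 0.61) did not pass the test, at an FDR of 0.787 from edgeR. Without PRMT5 KD replicate 1 the change was -0.95, and without replicate 2 it was 0.87. The direction of IL1A thus turned with the PRMT5 KD library that was left out. Per length, IL1B exceeded IL1A by 1.29 and 1.74 times in Control and by 8.65 and 5.56 times in PRMT5 KD, so the ratio separated the groups while IL1A did not.

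IL18 encodes a cytokine that epithelia hold ready as a precursor, and lies on the minus strand at chr11:112143253-112164096. It had 897 and 808 counts in Control and 976 and 1825 counts in PRMT5 KD, or 22.7, 16.1, 20.5 and 38.2 CPM. Here replicate 2 was the higher PRMT5 KD library, by 0.89 on the log2 scale, and replicate 1 lay between the Control libraries. The difference of 0.60 (SE 0.34) did not pass the test, at an FDR of 0.194 from edgeR. Without PRMT5 KD replicate 1 it was 1.02. Another protein-coding gene overlaps IL18 on the opposite strand, so counts made without strand could not be told apart there.

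The antagonists were low in every library, and both were read more in PRMT5 KD than in Control. IL1RN, which encodes the IL-1 receptor antagonist, lies on the plus strand at chr2:113099315-113134016. It had 35 and 50 counts in Control and 910 and 351 counts in PRMT5 KD, or 0.884, 0.999, 19.1 and 7.34 CPM. Both PRMT5 KD libraries were above Control, replicate 1 by 1.38 more than replicate 2 on the log2 scale. IL1RN rose by 3.80 on the log2 scale (SE 0.55, FDR 0.00401 from edgeR), and by 2.99 to 4.34 with a library left out. IL1RN passed the filter through PRMT5 KD alone and so had to differ. Per length it stayed far below its agonists, with 0.00233 and 0.00212 of the summed IL1A and IL1B level in Control and 0.00645 and 0.0132 in PRMT5 KD. The share was highest in PRMT5 KD replicate 2. There the agonists summed to 149 CPM per kilobase of exon, against 794 in replicate 1 and 101 and 126 in Control.

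IL36RN, which encodes the IL-36 receptor antagonist, lies between IL36B and IL1RN on the plus strand at chr2:113058638-113065382. It had 1 and 0 counts in Control and 29 and 40 counts in PRMT5 KD, or 0.0253, 0, 0.609 and 0.836 CPM. The groups did not overlap, and unlike IL36G, replicate 2 was the higher PRMT5 KD library. No test was made below the filter. The summed counts were 1 against 69, a scaled ratio of 64.8 with an exact 95% interval of 11.3 to 2597.

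The receptor subunits were well read in all libraries and neither passed the test. IL1R1, the ligand-binding chain for IL-1, lies on the plus strand at chr2:102064544-102179874, and had 92.5 and 107 CPM in Control and 85.3 and 63.6 CPM in PRMT5 KD. Both PRMT5 KD libraries were below both Control libraries. The difference was -0.42 on the log2 scale (SE 0.17), with an unadjusted p of 0.0446 and an FDR of 0.0750 from edgeR. Without PRMT5 KD replicate 1 the difference was -0.61. A long non-coding gene, IL1R1-AS1, overlaps it on the opposite strand. IL1RAP, the shared accessory chain, lies on the plus strand at chr3:190514051-190659750, and had 51.9 and 40.5 CPM in Control and 47.1 and 49.8 CPM in PRMT5 KD. The groups overlapped, and the difference was 0.07 on the log2 scale (SE 0.15, FDR 0.714 from edgeR). Per length, IL1R1 exceeded IL1RAP 2.80 and 4.14 times in Control and 2.85 and 2.01 times in PRMT5 KD.

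**Figure D2:**
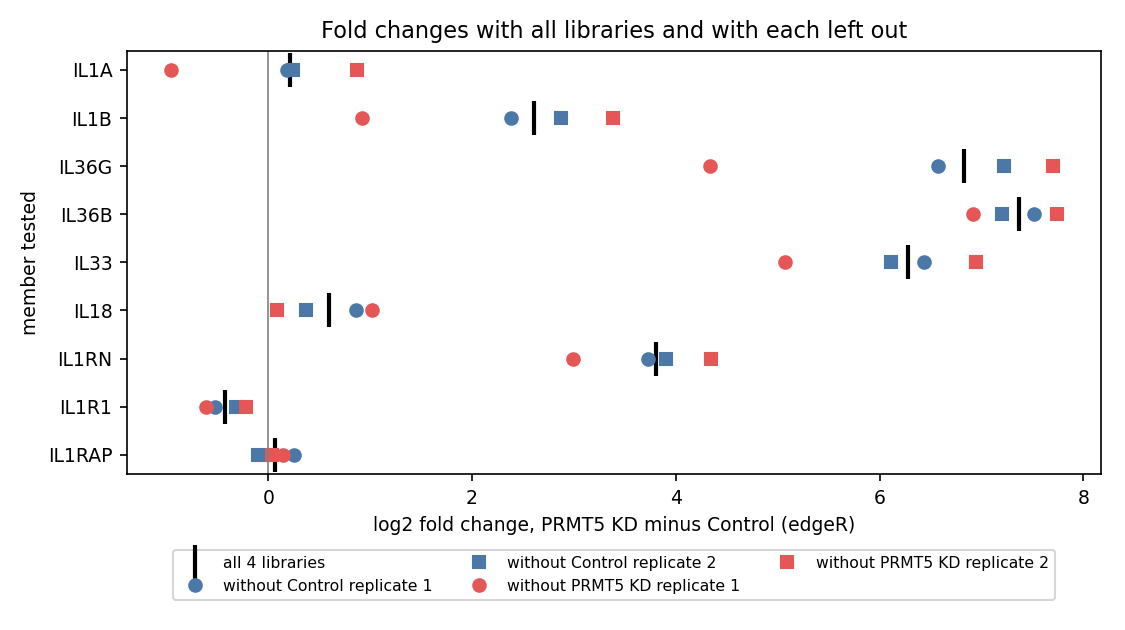
Log2 fold change of each tested member, PRMT5 KD minus Control, from edgeR with all 4 libraries (bar) and with each library left out (symbols). IL1A moves from -0.95 to 0.87 with the PRMT5 KD library that is left out and IL36G from 4.34 to 7.70, while IL36B stays within 6.92 to 7.74.

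Counted over the family, IL1RN, IL36B and IL33 of the 8 tested members other than IL36G were called higher, beside 21.2% of all genes tested, and none was called lower, beside 24.3%. By edgeR, 1 member was lower at an unadjusted p under 0.05 (IL1R1) and 4 were higher, and DESeq2 also called none lower. All 3 called members passed the filter through PRMT5 KD alone, and the family was selected on this contrast, so nothing is read from these shares. Without PRMT5 KD replicate 1, IL1B and IL18 were also called higher, making 5, and IL1A and IL1R1 were called lower, while without replicate 2, IL1A and IL1B were also called higher, making 5. Such fits assume that the single PRMT5 KD library left varies as the Control libraries do. Of all 10 members, 6 had both PRMT5 KD libraries above both Control libraries and 1 had both below. Of the 9 tested these were 5 and 1. The shares of all genes tested were 39.9% above and 40.6% below. The counts include IL36G, on which the family was selected. They also include IL36B, IL33 and IL1RN, which passed the filter through PRMT5 KD alone, so nothing is read from them.

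Within PRMT5 KD, the libraries differed widely from each other in several members. PRMT5 KD replicate 1 exceeded replicate 2 by at least 1 on the log2 scale in IL1A, IL1B, IL1RN and IL33 among the 8 tested members other than IL36G, beside 1.53% of all genes tested. The reverse held for none of them, beside 0.824% of all genes. IL36G, with an excess of 3.38, is not counted, since the family was selected on a rise that replicate 1 carries most. IL1RN and IL33 passed the filter through PRMT5 KD alone. For IL1B, 14 tested genes had a larger excess. The difference was looked for after the library values were known, no test was made of it, and nothing is read from these shares. IL36B, IL1R1 and IL1RAP differed by less than 1, and IL18 and IL36RN were higher in replicate 2.

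**Figure D3:**
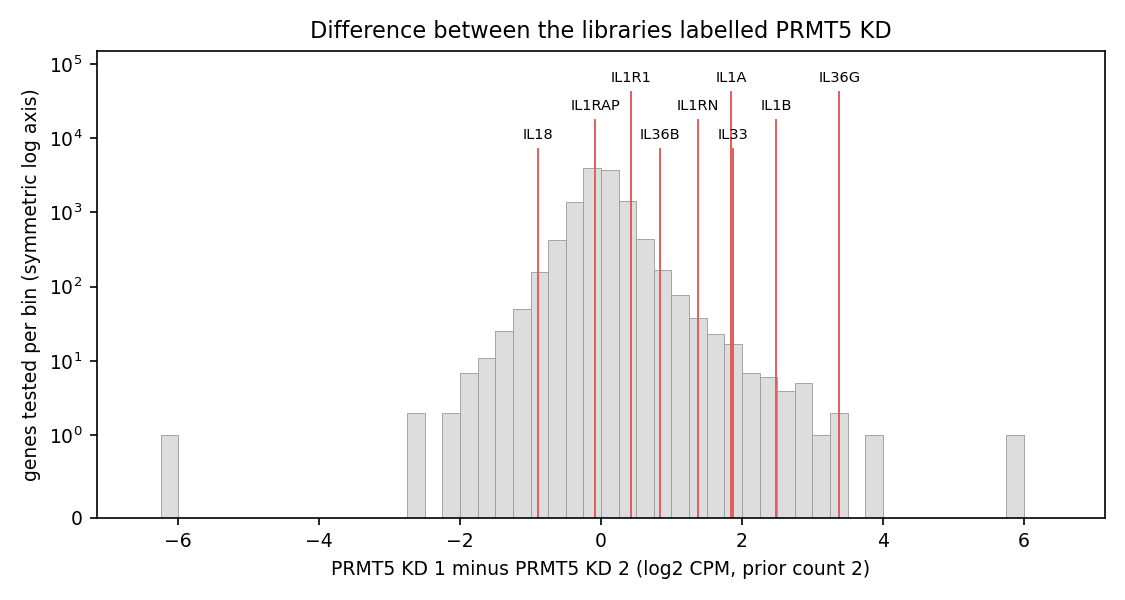
Difference between the libraries labelled PRMT5 KD, replicate 1 minus replicate 2 in log2 CPM, with grey bars counting the 11897 genes tested on a symmetric log axis and red lines marking the 9 tested members. IL36G lies at 3.38 and IL1B at 2.49 in the right tail, and IL1RAP lies at -0.08 in the centre.

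The remaining IL-1 family genes, 12 in all, were at the edge of detection apart from IL18BP and SIGIRR. IL18BP, which encodes a secreted protein that neutralises IL-18, had 7.45 and 5.46 CPM in Control and 10.0 and 12.7 CPM in PRMT5 KD. It rose by 0.82 on the log2 scale (SE 0.22, FDR 0.0202 from edgeR), a call lost without Control replicate 2 (0.61, FDR 0.146 from edgeR). SIGIRR, an inhibitory receptor, had 4.07 and 4.30 CPM in Control and 4.18 and 2.89 CPM in PRMT5 KD, a difference of -0.24 (SE 0.26, FDR 0.449 from edgeR) in which the groups overlapped. The IL-36 receptor gene IL1RL2 had 76 and 64 counts in Control and 47 and 94 counts in PRMT5 KD, so the receptor for IL-36γ was read at a low level in every library and did not separate the groups.

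Others were lower still. The decoy receptor IL1R2 had 26 to 33 counts per library and the IL-18 receptor chain IL18R1 had 14 to 26. The IL-33 receptor IL1RL1 had 4 and 5 counts in Control and 2 and 0 counts in PRMT5 KD, and IL18RAP had 0 to 5. IL36A, which encodes the remaining IL-36 agonist, had 6 counts in PRMT5 KD replicate 1 and 0 elsewhere. IL37, an anti-inflammatory member, had 5, 0, 5 and 4 counts, and IL1F10 had 3 counts in PRMT5 KD replicate 1 alone. IL1RAPL1 and IL1RAPL2 encode accessory proteins known from neurons. IL1RAPL1 had 42 and 59 counts in Control and 8 and 18 counts in PRMT5 KD, and IL1RAPL2 had 3, 2, 6 and 5.

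Inside the cell, IL-1 family receptors pass the signal through MYD88, the IRAK kinases, TRAF6 and the IκB kinases. All 17 listed genes of this route were tested, of which 3 rose (21.2% of all genes), 2 fell (24.3%) and 12 did not pass, with a median log2 fold change of 0.05. CHUK, a catalytic IκB kinase subunit, had 45.4 and 46.1 CPM in Control and 84.4 and 90.4 CPM in PRMT5 KD, and rose by 0.93 (SE 0.11, FDR 0.000979 from edgeR). IKBKG, the regulatory subunit, rose by 0.80 (FDR 0.00527), and the ubiquitin ligase gene PELI1 by 0.78 (FDR 0.0209). Its relative PELI2 fell from 11.3 and 13.7 CPM to 4.14 and 3.68 CPM, a change of -1.68 (SE 0.19, FDR 0.000868 from edgeR), and PELI3, named after its values were seen, fell as well. The kinase genes IRAK1 and IRAK2 had the highest levels per length. IRAK1 differed by 0.35 (FDR 0.0345), under the fold threshold, and IRAK2 by 0.44 (FDR 0.162). Without Control replicate 2 only 1 gene was called in each direction, and without Control replicate 1 it was 2 in each.

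Of 23 genes for the processing and release of IL-1 family cytokines, 16 were tested, and 6 rose (21.2% of all genes), 4 fell (24.3%) and 6 did not pass, with a median log2 fold change of 0.12. CTSS, a lysosomal protease, had 24.1 and 26.9 CPM in Control and 149 and 106 CPM in PRMT5 KD, and rose by 2.32 (SE 0.19, FDR 0.000431 from edgeR). The inflammasome DNA sensor AIM2 rose by 1.87 (FDR 0.000657) from 8.16 and 7.15 CPM to 23.8 and 32.1 CPM. CASP1, the protease that matures IL-1β and IL-18, had 713 and 799 counts in Control and 1426 and 2346 counts in PRMT5 KD, and rose by 1.22 (SE 0.25, FDR 0.00968 from edgeR). CASP4, a sensor of bacterial lipopolysaccharide, rose by 1.19 (FDR 0.00149). Those that fell included the gasdermin gene GSDME, listed as DFNA5, at -0.80 (FDR 0.0139), the calpain gene CAPN2 at -0.64 (FDR 0.00629) and the inflammasome sensor gene NLRP1 at -0.52 (FDR 0.0463). CARD18, an inhibitor of caspase-1 named after its values were seen, was the other gene that fell. It passed the filter through Control alone and so had to differ. CAPN2 and CAPN1 had the highest levels per length, and CAPN1 differed by -0.26 (FDR 0.102). The call of NLRP1 was lost in most alternatives, and its value was -0.34 with total counts alone and -0.06 with a correction for exon length. The call of CAPN2 was lost in the same 2 settings, at -0.46 and -0.43. That of GSDME was lost with the length correction and a replicate term together, at -0.58. Without Control replicate 1, 4 genes were called higher and 2 lower, and without Control replicate 2, 3 and 0 (edgeR). None of the 16 differed by 1 or more on the log2 scale between the PRMT5 KD libraries.

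Genes known to answer IL-1 or IL-36 formed a list of 32, of which 26 were tested. In this list 11 rose (21.2% of all genes), 5 fell (24.3%) and 10 did not pass, with a median log2 fold change of 0.54. CSF3, which encodes granulocyte colony-stimulating factor, had 51.0 and 60.3 CPM in Control and 1321 and 446 CPM in PRMT5 KD, and rose by 3.99 (SE 0.60, FDR 0.00616 from edgeR). CSF2, which encodes the granulocyte-macrophage factor, rose by 2.98 (FDR 0.034) to 646 and 132 CPM, from at most 54.6 CPM in Control. The neutrophil chemokine gene CXCL3 had 62.8 and 75.7 CPM in Control and 635 and 213 CPM in PRMT5 KD, and rose by 2.62 (SE 0.57, FDR 0.0181 from edgeR). IL6, a cytokine of the acute phase response, rose by 2.11 (FDR 0.0145) from 340 and 231 CPM to 1692 and 764 CPM.

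The chemokine genes with the highest levels per length in this list were CXCL8, listed as IL8, and CXCL1. IL8 rose by 1.52 (SE 0.47, FDR 0.0451 from edgeR) and CXCL1 by 1.71 (SE 0.35, FDR 0.0105 from edgeR). Against these, ICAM1, an adhesion molecule, fell from 934 and 974 CPM to 502 and 347 CPM, a change of -1.17 (SE 0.20, FDR 0.00383 from edgeR). BCL3, a nuclear IκB protein, fell by 0.80 on the log2 scale (FDR 0.00692). S100A8, S100A9 and VNN1, named after their values were seen, also fell. Of these, S100A8 and S100A9 passed the filter through Control alone and so had to differ. Without Control replicate 1, 5 genes of the list were called higher and 4 lower, and without Control replicate 2, 3 and 2, with CSF2, CXCL3, IL8 and CXCL1 no longer called in either case. Of the 26, 10 were higher in PRMT5 KD replicate 1 than in replicate 2 by at least 1 on the log2 scale (1.53% of all genes tested). None was lower by as much (0.824%). Among the 10 was S100A9, with 5 and 0 counts in PRMT5 KD. As for the members, no test was made of this difference, and nothing is read from these shares.

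**Figure D4:**
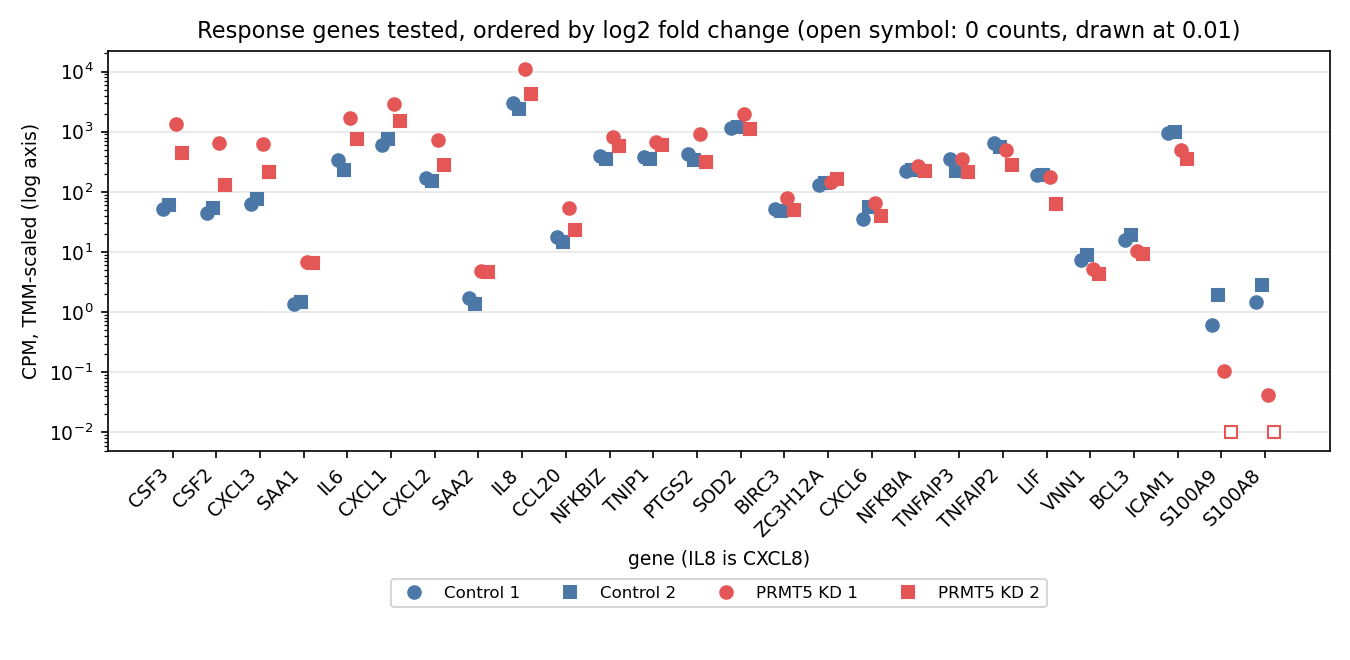
The 26 response genes tested, ordered by log2 fold change, in CPM on a log axis with 1 symbol per library and open symbols for 0 counts. CSF3, CSF2, CXCL3 and IL6 are higher in both PRMT5 KD libraries than in Control with replicate 1 above replicate 2, and ICAM1 and BCL3 are lower in both.

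IL1A, IL1B, IL36G, IL36B, IL36RN and IL1RN lie together on chromosome 2, within the span from 112773925 to 113134016 on GRCh38, and the genes beside this cluster were read in the same libraries. CKAP2L, which lies next to IL1A and encodes a spindle protein, had 31.8 and 20.9 CPM in Control and 91.5 and 95.7 CPM in PRMT5 KD. It rose by 1.83 (SE 0.21, FDR 0.00121 from edgeR) and differed little between the PRMT5 KD libraries. On the other side, PAX8, a developmental transcription factor gene, had 1.31 and 1.64 CPM in Control and 8.34 and 5.27 CPM in PRMT5 KD, and rose by 2.20 (SE 0.31, FDR 0.00184 from edgeR), but it passed the filter through PRMT5 KD alone and so had to differ. PSD4, which encodes an exchange factor for the GTPase ARF6, lies between IL1RN and PAX8 and had 66.4 and 68.4 CPM in Control and 84.1 and 48.6 CPM in PRMT5 KD. Its groups overlapped, and the difference was -0.02 (SE 0.26, FDR 0.949 from edgeR).

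**Figure D5:**
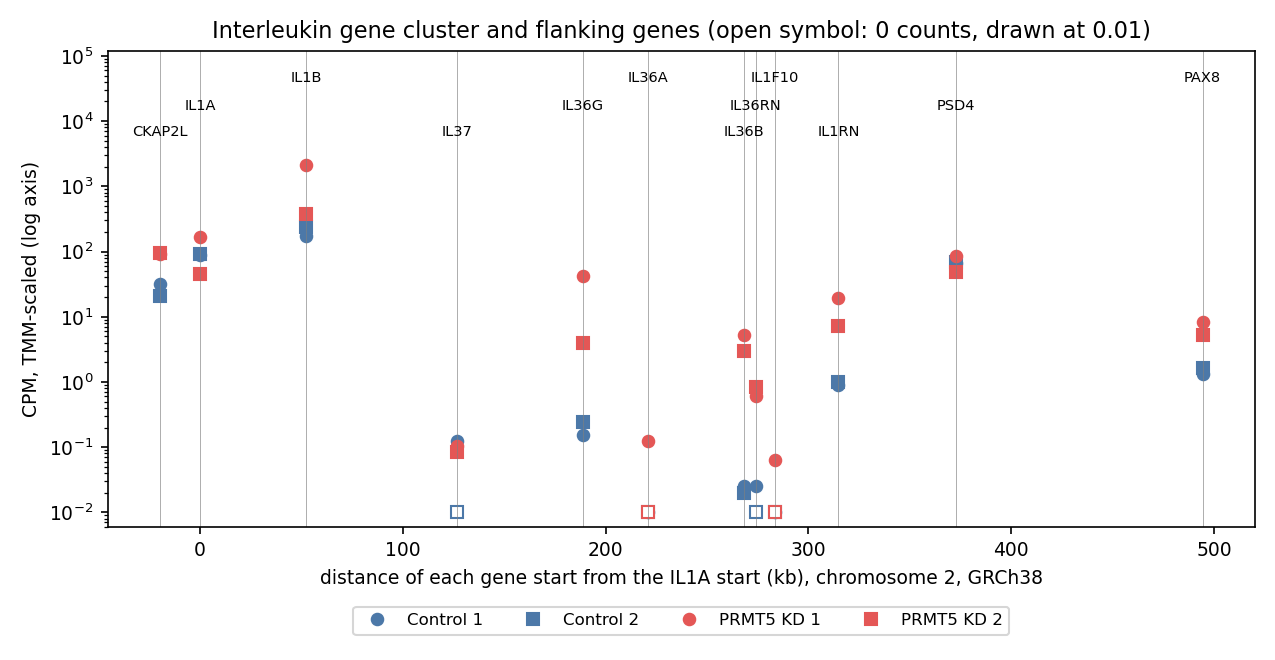
Level of each gene of the chromosome 2 interleukin cluster and its flanking genes in each library, in CPM on a log axis, against the distance of the gene's start from the start of IL1A in kilobases. IL36G, IL36B, IL36RN and IL1RN lie near or below 1 CPM in both Control libraries, as do IL37, IL36A and IL1F10 among them, while IL1A, IL1B and the outer genes CKAP2L, PSD4 and PAX8 are above 1 CPM in all 4.

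IL1R1 lies in a row of receptor genes of the family, and the genes outside that row were read too. MAP4K4, a kinase gene on the side of IL1R2, had 331 and 406 CPM in Control and 356 and 395 CPM in PRMT5 KD, a difference of 0.03 (SE 0.15, FDR 0.889 from edgeR). SLC9A4, on the side of IL18RAP, had 0 to 8 counts per library. Around IL1RAP, the epidermal transcription factor gene TP63, which passed the filter through Control alone, fell by 1.35 on the log2 scale (FDR 0.0111) and the tight junction gene CLDN1 by 0.94 (FDR 0.0214). Both calls were lost when Control replicate 1 was left out, at FDRs of 0.0570 and 0.0843 from edgeR. GMNC, below the filter, had 22 and 14 counts in Control and 61 and 79 counts in PRMT5 KD. CLDN16 had 8 to 22 counts per library, OSTN had 2, 3, 0 and 0, and TMEM207 was listed at 0.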

How the data were processed

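The authors deposited estimated counts per gene, 1 table per library, without normalization. The submitters' processing notes name FastQC, Trim Galore, STAR, Salmon, DESeq2 and GRCh38, whereas the methods name FeatureCounts on Gencode genes. Which program made the deposited values is not given in the sources used here. Of the 29744 entries, 28 had become dates and were left out. Names were matched to GENCODE 44.

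Estimated counts were rounded to whole numbers. RPKM used union exon lengths. The 11897 genes tested were compared with the quasi-likelihood test of edgeR 4.0.16 (robust, TMM factors, R 4.3.3) without a replicate term, with Benjamini-Hochberg adjustment (FDR). Each SE was derived from the fold change and F statistic. In all, 2 libraries against 2 cannot reach a permutation p of 0.05. On simulated data with 11897 genes and 200 changed, 91.5% were recovered and 14.9% of calls were unchanged genes. The latter share is above the FDR threshold of 0.05. In the data themselves 5418 genes were called, so neither share need hold there. DESeq2 1.42.0, other scalings and filters, all gene names, non-robust dispersion, replicate terms, an exon length correction and leaving out each library were the alternatives.

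The members and gene lists were chosen with earlier results of these data known. Named were PRMT5, the members, the other family and neighbour genes with a count, up to 4 called genes in each direction of the other lists at an average of 3 or more log2 CPM, and the 2 with the highest RPKM.

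Depth was 52.2 to 66.0 M counts (M for 1000000), with 71.5% to 81.4% on protein-coding genes, and intervals cover counting error only.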

Additional observations from a re-analysis of the deposited data

How the results depend on the processing

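With 2 libraries per group, no library could be tested as an outlier, and low counts limit IL36RN and the other genes under the filter. Over the alternatives run, 499 values of single genes kept their direction and side of the threshold, 47 lost a call, 10 gained one and 14 changed direction. PRMT5 ranged from 0.57 to 0.78 on the log2 scale with a library left out, IL36G from 4.34 to 7.70, the members called higher from 3 to 5 and those called lower from 0 to 2, the last 2 without PRMT5 KD replicate 1. For genes called higher and lower, leaving out a library gave 1 to 4 and 1 to 2 in receptor signalling, 3 to 7 and 0 to 5 in processing and release, and 3 to 15 and 2 to 7 in the response list, with the lowest counts without Control replicate 2. Over all genes, 3108 to 5709 were then called, against 5418 with all libraries.

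A log2 threshold of 1 gave 0 receptor signalling genes higher and 1 lower, 1 processing gene lower and 3 response genes lower, since smaller changes no longer count. Scaling by total counts alone, which moved the median of all genes to 0.17 from -0.0074, gave 2 processing genes lower, and called 3509 genes higher and 2200 lower in place of 2522 and 2896. Without a filter, 7 response genes were called higher, and the cause was not tested.

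The replicate numbers were not taken as pairs, since deviations of same-numbered libraries correlated at -0.10 across genes and no source says that they pair. A replicate block gave 5185 calls, 3 members higher and an FDR of 0.0515 for IL18BP, and turned IL1A to -0.059. With the exon length correction added to the block, IL1A was -0.21 and 2 processing genes were lower. The crossed pairing, chosen after the data were seen, gave 5486 calls, with 4 members higher, and IL1A at -0.057.

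The genes that changed direction did not pass the test with all 4 libraries. IL1A was lower without PRMT5 KD replicate 1 and higher without replicate 2, in fits where the single library left was assumed to vary as Control does. With a library left out, IL1A ranged from -0.95 to 0.87, IL1RAP from -0.10 to 0.26, SIGIRR from -0.50 to 0.0062, PSD4 from -0.44 to 0.33 and MAP4K4 from -0.11 to 0.18. PSD4 was also 0.15 with total counts alone, 0.030 without a filter, 0.038 with filterByExpr, 0.33 with the exon length correction and 0.28 with that correction and the block. The causes were not tested.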
